A study of Homo sapiens with 4 samples.

Results

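The transcripts described here are MYC and 7 immediate early transcripts, JUN, JUNB, FOSL2, EGR1, DUSP1, ZFP36 and IER2, chosen by name from the gene column of the deposited site lists. They are 8 of the 15209 genes with a listed site, and they hold 131 of the 218950 listed sites. N6-methyladenosine (m6A) was measured at single bases in messenger RNA of HEK293T cells, a line derived from human embryonic kidney that carries a viral large T antigen. The 2 control libraries came from cells labelled as wild type, and the 2 ascorbic acid libraries from the same line grown with ascorbic acid for 36 h, starting 24 h after seeding. The labels describe medium changes every 6 h for the treatment and do not say whether control cells had them, and no dose is stated in these sources. Nothing in the labels says that libraries of a group came from separate cultures, so the p-values measure the spread between these libraries, which may be technical.

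Immediate early genes are transcribed within minutes of a growth or stress signal, without the need for new protein, and their messenger RNAs are short-lived. JUN, JUNB and FOSL2 encode subunits of AP-1, a dimeric transcription factor, and EGR1 encodes a zinc finger factor. DUSP1 and ZFP36 act as brakes, DUSP1 by removing phosphates from MAP kinases and ZFP36 by binding AU-rich elements and speeding messenger RNA decay. MYC encodes a transcription factor that pairs with MAX on E-box sequences and drives growth, and IER2 encodes a nuclear protein linked to transcription. The mark m6A is laid down on adenosine by a complex that contains METTL3 and METTL14, mostly where a purine precedes the methylated base and a C follows it, and it is known for its part in messenger RNA turnover. In GLORI, the assay used here, unmethylated adenosine is converted chemically and gives G in the reads, whereas m6A resists and gives A. A site's level is thus the share of A among its A and G reads, in percent. Cells given ascorbic acid are also called treated cells.

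DUSP1 is the member whose coverage rose with ascorbic acid, and it has a listed site inside the reference sequences at hand. Its promoter is shown because 2 sequences known to bind signal-responsive factors lie in it. The stretch around the listed site is shown for the letters around that adenosine, whose methylation a single library does not establish. Both are on the minus strand of chromosome 5 in build GRCh38.p14 and come from RefSeq, the first at chr5:172771178-172771198 and the second at chr5:172771196-172771445, the 250 bases before the annotated start.
DUSP1 listed site: gctgcgaaGGACatttgggct
DUSP1 promoter: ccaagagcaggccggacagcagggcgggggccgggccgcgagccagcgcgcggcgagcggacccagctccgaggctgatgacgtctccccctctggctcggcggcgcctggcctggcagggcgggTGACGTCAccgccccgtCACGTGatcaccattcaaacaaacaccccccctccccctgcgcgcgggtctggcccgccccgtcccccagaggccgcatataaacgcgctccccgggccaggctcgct
In the site sequence the capitals mark the listed adenosine with the 2 bases before it and the base after it. The site lies at chr5:172771188, the 8th transcribed base, and was listed in ascorbic acid library 2 alone, at 21.7% of 23 reads. All 4210 listed sites of the series in the first 50 transcribed bases of a RefSeq gene were an A in the reference. This checks the coordinates and not the methylation. Of these 4210 sites, 5.46% stood in GGAC, against 2.11% of all A in the same windows.
In the promoter the capitals mark TGACGTCA, the cAMP response element, which starts 125 bases before the annotated start, and CACGTG, an E-box, which starts 108 bases before it. Both words read the same on either strand. TGACGTCA was found in 1.65% and CACGTG in 6.34% of 35116 promoters of that length. The AP-1 word TGACTCA, searched on both strands, was found in 4.20% of them. Promoters of 7 of the 8 members were in the reference. DUSP1 held the cAMP response element and the E-box, and none of the other 6 held any of the 3 words.

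The libraries held between 22592887 and 28562744 A plus G reads at listed sites, of which between 34069 and 47017 lay at member sites. Control library 2 stood apart in conversion, with a median share of unconverted A per gene of 3.88% against 2.51% to 2.87% in the other libraries. The lists hold no site below 15 reads, 5 A reads or a level of 10%, so a site that dropped under 10% could not be compared. A gene is seen only where it carries a listed site: of 14 markers of leukocytes, endothelium, fibroblasts, red cells and hepatocytes, COL1A1 and COL3A1 were listed, and of 8 kidney markers LRP2 and WT1. Defining markers of kidney tubule such as UMOD and AQP2 were not listed.

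Few sites of these transcripts changed with ascorbic acid. Of the 73 member sites tested, 7 fell, none rose and 66 did not pass the test (edgeR, quasi-likelihood, on the A and G reads of each site, adjusted p under 0.05). The falls lay in MYC, JUN and IER2, with 2 sites each, and in DUSP1, with 1 site. That is 9.59% of the member sites, where 25.7% of the 78509 sites tested in the whole series fell and 0.22% rose. With DESeq2 and with limma 4 of the 7 still fell and no other member site did. Without control library 1 or without ascorbic acid library 2, 3 of the 7 still fell, beside 4 and 1 sites not called with all libraries. Without either of the other libraries 5 of the 7 did.
Any decrease at all was seen at 50 of the 73 sites, 68.5%, against 82.9% of all tested sites. At 21 sites the ascorbic acid values were both lower than either control value, 28.8% against 55.4%. At 5 of the 73 sites they were both higher, against 4.22% of all tested sites. The median change in level over member sites was -1.09 percentage points, and over all tested sites -4.89 percentage points. Across the series, 19.7% of sites in genes with an annotated span under 5000 nt fell. Of the 6 members with tested sites, all but MYC and FOSL2 are that short. The part that gene length plays in the members' count was not tested.

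**Figure D1:**
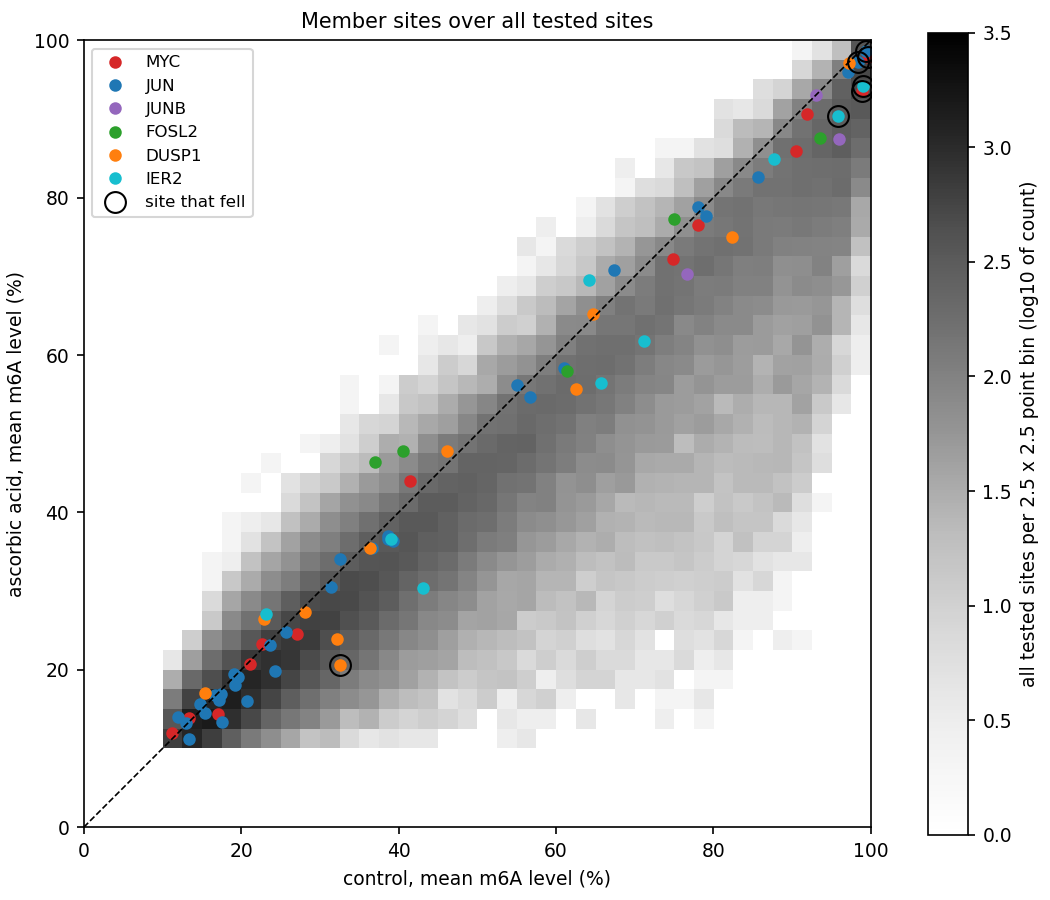
Mean m6A level of each tested site in ascorbic acid (vertical axis, %) against control (horizontal axis, %), with all 78509 tested sites as grey density and the 73 member sites as points coloured by gene. Most member points lie close to the dashed line of equal levels, and 6 of the 7 circled sites that fell lie at the upper right corner, above 95% in control.

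The falls among the members were gathered at sites that were almost fully methylated in control. Of 9 member sites with a control mean of at least 95%, 6 fell, where 60.6% of all such sites in the series did. Of 7 member sites between 80% and 95%, none fell, where 55.6% of all sites in that range did. Between 50% and 80% none of 16 fell against 34.6%, between 20% and 50% 1 of 25 fell against 16%, and under 20% none of 16 fell against 4.65%. In the class from 95% the share that fell was thus near the background, but the median change was -1.78 percentage points at member sites and -7.18 at all sites. Between 80% and 95% the medians were -3.16 and -11.4 percentage points.

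**Figure D2:**
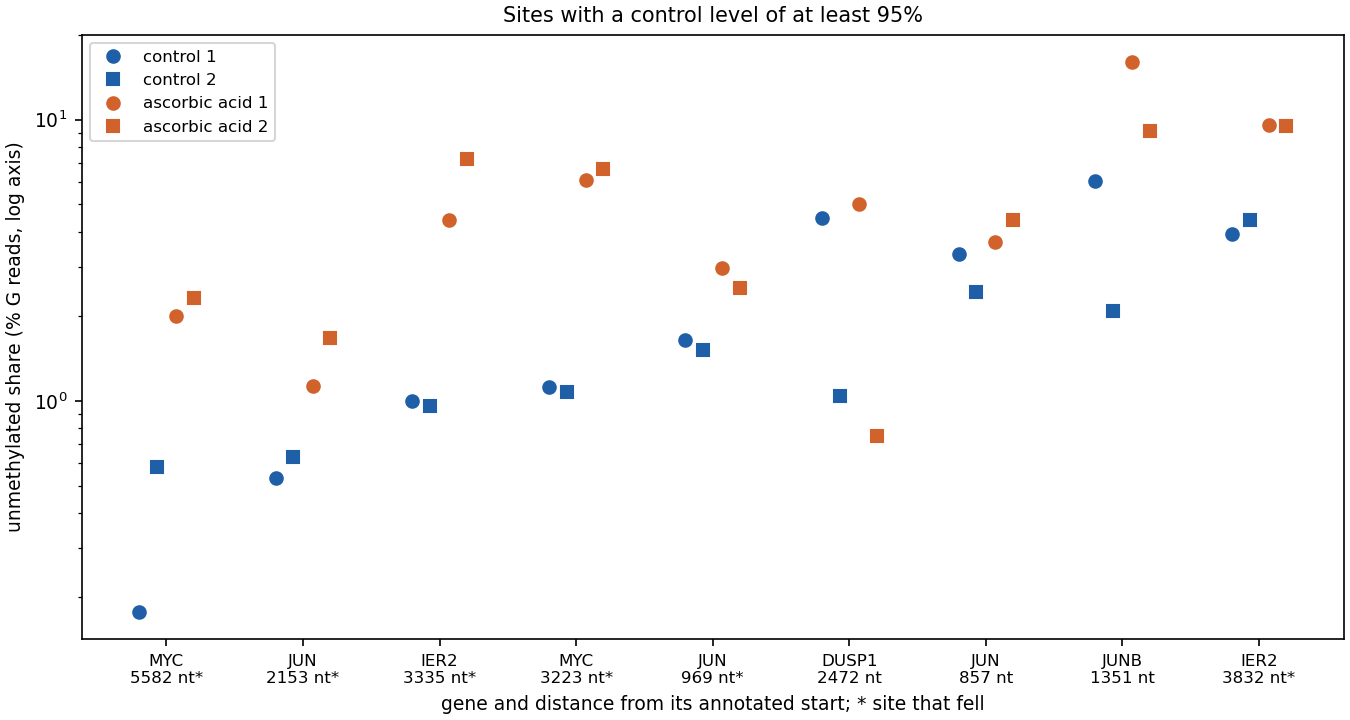
Unmethylated share (% G reads, log axis) in each library at the 9 member sites with a control mean level of at least 95%, named by gene and distance from the annotated gene start in nt, with an asterisk for sites that fell. Both ascorbic acid libraries (orange) lie above both control libraries (blue) at 8 of the 9 sites, and the DUSP1 site is the exception.

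MYC lies at chr8:127735434-127742951 on the plus strand. It had 22 listed sites, 13 of them tested, with control means from 11.2% to 99.6% and between 146 and 2220 reads per site and library. At 2 sites the level fell, and the other 11 did not pass. The site at chr8:127738657, 3223 nt from the annotated gene start, read 98.9% and 98.9% in the control libraries and 93.9% and 93.3% in the ascorbic acid libraries. The control libraries were nearly equal there, and both ascorbic acid libraries were lower. Reads showing unmethylated G numbered 11 of 981 and 9 of 840 in control and 61 of 1001 and 78 of 1170 with ascorbic acid, a share 5.82 times as high. The change in log2 odds was -2.61 (95% interval -3.17 to -2.05, adjusted p = 3.47e-10), and it passed in every alternative fit that was run.
The site at chr8:127741016 had the highest control level of the transcript, 99.8% and 99.4%, and read 98.0% and 97.7% with ascorbic acid. Only 1 of 563 and 2 of 345 control reads there were G, against 10 of 500 and 14 of 602. In log2 odds it changed by -2.65 (95% interval -3.99 to -1.31, adjusted p = 0.00185), and without control library 1 it did not pass (adjusted p = 0.104).
None of the remaining MYC sites passed the test. The largest change among them was at chr8:127740891, from 89.9% and 91.1% to 85.5% and 86.3%, with groups that do not overlap (adjusted p = 0.160). The site with the most reads, chr8:127736531, read 13.2% and 13.4% in control and 14.1% and 13.6% in treated cells, from 1731 to 2220 reads per library. The largest gain in mean level, from 41.4% to 44.0%, was at chr8:127736466 (adjusted p = 0.429). Tested sites near the annotated start were low and tested sites toward the 3′ end high. The 5 tested sites up to 1097 nt from the start had control means between 13.3% and 41.4%. The 5 tested sites from 5157 nt on had control means between 74.9% and 99.6%. Listed but untested sites of the latter stretch were not all high. In control library 1, chr8:127740934 read 14.6% and chr8:127740945 read 88.2%. The other tested sites of this stretch that did not pass were chr8:127740591, chr8:127740621 and chr8:127741128. Their mean levels went from 74.9% to 72.2%, from 78.1% to 76.5% and from 91.9% to 90.7%. Summed over its tested sites, MYC read 47.7% and 47.9% in control and 48.3% and 46.6% in treated cells. The treated libraries lie on either side of the control libraries, and the log2 odds changed by -0.02 (95% interval -0.16 to 0.12, adjusted p = 0.805, edgeR). Such a sum also depends on how the reads are spread over high and low sites. Taken singly, 9 of the 13 tested MYC sites were lower in mean level and 4 were higher.
A further 7 listed sites lie within the span of MYC but are given to no named gene in the lists. The tested one, chr8:127738217, read 35.8% and 25.0% in control and 19.6% and 25.0% in treated cells (adjusted p = 0.406).

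JUN encodes the AP-1 subunit that can pair with itself or with a FOS protein. It lies at chr1:58780791-58784047 on the minus strand and was the most densely listed member, with 40 sites in 3257 nt. That is 12.3 listed sites per kb of annotated span, more than in 99.6% of 14475 genes, although spans count introns and JUN has none. All 32 sites tested had between 101 and 2823 reads per library, 2 fell and 30 did not pass. The site at chr1:58781894 read 99.5% and 99.4% in control and 98.9% and 98.3% in treated cells, where G made up 6 of 1126 and 8 of 1263 reads and then 15 of 1325 and 30 of 1788. The groups do not overlap, but the difference in mean level was 0.82 percentage points. In log2 odds this was a change of -1.30 (95% interval -2.08 to -0.51, adjusted p = 0.0103).
The site at chr1:58783078 read 98.4% and 98.5% in control and 97.0% and 97.5% in treated cells (log2 odds -0.80, adjusted p = 0.0225). Both JUN falls were lost with DESeq2 (adjusted p = 0.0522 and 0.0925) and with limma on log2 odds (0.0570 and 0.0879). The first was also lost without either control library or without ascorbic acid library 2 (adjusted p from 0.0617 to 0.251), and the second when any library was left out (0.0678 to 0.193). A neighbour of the second site shows how levels differ within one stretch of RNA: chr1:58783067, 11 nt away and largely on the same reads, read 35.7% and 37.6% in control and 35.3% and 35.8% in treated cells. The third JUN site above 95%, chr1:58783190, went from 96.7% and 97.6% to 96.3% and 95.6% and did not pass (adjusted p = 0.0697).
The site with the most reads, chr1:58783937, lies 110 nt from the annotated start and read 29.3% and 33.4% in control and 31.2% and 30.0% in treated cells. The largest fall in mean level was from 20.7% to 16.0% at chr1:58783493 (adjusted p = 0.188), and the largest gain from 67.4% to 70.8% at chr1:58782199 (adjusted p = 0.519). Over the series the median change was -4.89 percentage points at all tested sites. It was -4.43 where the control mean lay between 20% and 50%, and -8.79 between 50% and 80%.
Over all its tested sites JUN read 41.6% and 45.5% in control and 43.0% and 41.8% in treated cells. Control library 2 was the highest of the 4, and control library 1 the lowest. The change in log2 odds was -0.07 (95% interval -0.22 to 0.08, adjusted p = 0.440). It was -0.18 without control library 1 (adjusted p = 4e-05) and 0.05 without control library 2 (adjusted p = 0.346), so the value turned on the control libraries. The unconverted share given for JUN was also highest in control library 2, at 7.16% against 5.64%, 5.97% and 6.02% in control library 1 and the ascorbic acid libraries. Its part in the level was not tested.

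JUNB, an AP-1 subunit that can oppose JUN, lies at chr19:12791486-12793315 on the plus strand. It was listed at 14 sites, but only 3 could be tested, with 25 to 48 reads per library. All 3 lie within 512 nt of the annotated 3′ end. The site at chr19:12792837 read 93.9% and 97.9% in control and 84.0% and 90.9% in treated cells (log2 odds -1.70, 95% interval -3.47 to 0.07, adjusted p = 0.166). Each treated library was lower than each control library, but the interval includes no change at this depth. The site at chr19:12792941, with the most reads, went from 95.2% and 90.9% to 92.1% and 94.1%. Over the 3 sites the level was 88.3% and 89.9% in control and 81.5% and 86.1% in treated cells. The groups do not overlap, and the change did not pass (log2 odds -0.63, 95% interval -1.43 to 0.16, adjusted p = 0.162).

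FOSL2 encodes a FOS-related subunit that needs a JUN partner. It lies at chr2:28392858-28417317 on the plus strand. Of its 18 listed sites 5 were tested, with 21 to 47 reads per library, all between 3954 and 4903 nt from the annotated 3′ end. None passed the test. The site at chr2:28412414 had the highest control level and the largest fall, from 96.6% and 90.5% to 96.0% and 79.3% (adjusted p = 0.412). The site with the most reads, chr2:28412926, read 41.2% and 40.0% in control and 59.5% and 36.2% in treated cells, and chr2:28413363 read 41.7% and 32.3% and then 34.1% and 58.6%. In each of these a single ascorbic acid library sets the change, and no FOSL2 site had groups that did not overlap. Summed, FOSL2 read 61.8% and 58.2% in control and 60.5% and 62.1% in treated cells (log2 odds 0.08, 95% interval -0.40 to 0.55, adjusted p = 0.789).

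EGR1 and ZFP36 could not be tested. EGR1, at chr5:138465479-138469303, had 4 listed sites with 16 to 25 reads, none of them in all libraries and none in ascorbic acid library 1. The site at chr5:138467945 was listed at 38.9% and 22.7% in the control libraries and at 36.0% in ascorbic acid library 2. ZFP36, at chr19:39406847-39409407, had 1 site, chr19:39408389, listed in ascorbic acid library 2 alone at 52.9% of 17 reads. A site with so few reads drops out of a list easily, so these entries say nothing of a difference between groups.

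DUSP1 lies at chr5:172768096-172771195 on the minus strand. It had 19 listed sites, 11 of them tested, with 39 to 489 reads per library. The level of 1 site fell, chr5:172768593, from 34.3% and 30.8% in control to 20.3% and 20.8% with ascorbic acid. It is the one fall among the members at a site with a control mean under 95%, and at 11.96 percentage points it is larger than any of the other 6. The change in log2 odds was -0.90 (95% interval -1.42 to -0.38, adjusted p = 0.00694). It was lost with DESeq2 (adjusted p = 0.146), with limma (0.0640) and without control library 1 or either ascorbic acid library (0.0586 to 0.0869).
Sites next to it did not pass. The one 11 nt away, chr5:172768582, read 28.0% and 36.3% in control and 27.1% and 20.8% in treated cells (adjusted p = 0.132), and the one 27 nt away, chr5:172768566, went from 34.8% and 37.9% to 34.5% and 36.4%. The site with the highest control level, chr5:172768723, read 95.5% and 99.0% in control and 95.0% and 99.2% in treated cells. G reads there numbered only 3 and 1 in control and 6 and 1 in treated cells, and the groups overlapped. The site with the most reads, chr5:172768814, read 65.4% and 64.0% and then 67.8% and 62.6%, and the largest gain, at chr5:172771004, was from 22.9% to 26.5% on 39 to 80 reads (adjusted p = 0.708).
The 4 tested sites near the annotated start, within 325 nt of it, had control means from 15.4% to 46.2%. The 7 tested sites from 2155 nt on ranged from 32.1% to 97.2%. Over all tested sites DUSP1 read 49.6% and 52.4% in control and 47.8% and 47.9% in treated cells. The groups do not overlap, and the change did not pass (log2 odds -0.19, 95% interval -0.38 to 0.01, adjusted p = 0.0927). Without control library 1 it was -0.27 and passed (adjusted p = 0.0135).

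IER2 was the one member whose level over all tested sites fell, from 67.3% and 67.9% in control to 63.6% and 62.9% with ascorbic acid. The difference of 4.40 percentage points was larger than the spread within either group (SD 0.43 and 0.49 percentage points, n = 2 each). Its log2 odds changed by -0.28 (95% interval -0.48 to -0.08, adjusted p = 0.0166, edgeR). It was lost with DESeq2 (adjusted p = 0.107), with limma (0.0733) and without either ascorbic acid library (0.0826 and 0.153). The level over all sites was lower by any amount in IER2, MYC, JUN, DUSP1 and JUNB, where 92.2% of the 10782 genes tested were lower. The groups did not overlap in IER2, DUSP1 and JUNB, as in 76.7% of all genes. Of all genes 56.8% fell and 0.297% rose, and of the 742 genes with a span under 5000 nt and at least 3 tested sites 51.2% fell. Of the 4 members with such a span and that many sites, JUN, JUNB, DUSP1 and IER2, 1 fell. Over all 6 tested members, the fits that left out 1 library called between 0 and 3 falls, the 3 being IER2, JUN and DUSP1 without control library 1.
IER2 lies at chr19:13150411-13154911 on the plus strand, and all its 9 tested sites lie 2644 nt or more from that annotated start. At chr19:13153746 it read 99.0% and 99.0% in control and 95.6% and 92.8% in treated cells. G made up 2 of 201 and 2 of 208 control reads and 7 of 159 and 16 of 221 reads with ascorbic acid. The change in log2 odds was -2.64 (95% interval -3.91 to -1.36, adjusted p = 0.00117), lost without ascorbic acid library 2 (adjusted p = 0.0899).
The other site that fell, chr19:13154243, went from 96.1% and 95.6% to 90.4% and 90.5% (log2 odds -1.26, 95% interval -1.90 to -0.62, adjusted p = 0.00189), and passed in every alternative fit that was run. Its neighbour 12 nt away, chr19:13154255, had the most reads of the transcript and read 40.0% and 38.1% in control and 38.8% and 34.6% in treated cells (adjusted p = 0.627). The largest fall in mean level, at chr19:13154057, rested on an uneven control pair: 30.6% and 55.6%, then 35.3% and 25.5% (adjusted p = 0.0948). At chr19:13154651 the level went from 64.8% and 66.7% to 54.3% and 58.6%, without overlap between the groups (adjusted p = 0.0602). The largest gain, at chr19:13153861, was from 66.3% and 62.1% to 71.0% and 68.2% (adjusted p = 0.517).
Upstream of these, inside the annotated IER2 span, lie 9 listed sites that the lists give to no named gene. Of 5 tested there, none passed the test. The largest change was a higher level at chr19:13152195, which read 11.4% and 18.3% in control and 23.7% and 24.1% in treated cells, with groups that do not overlap (log2 odds 0.84, adjusted p = 0.121). The highest, chr19:13150640, read 86.4% and 90.7% in control and 93.2% and 87.6% in treated cells (adjusted p = 0.828).

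**Figure D3:**
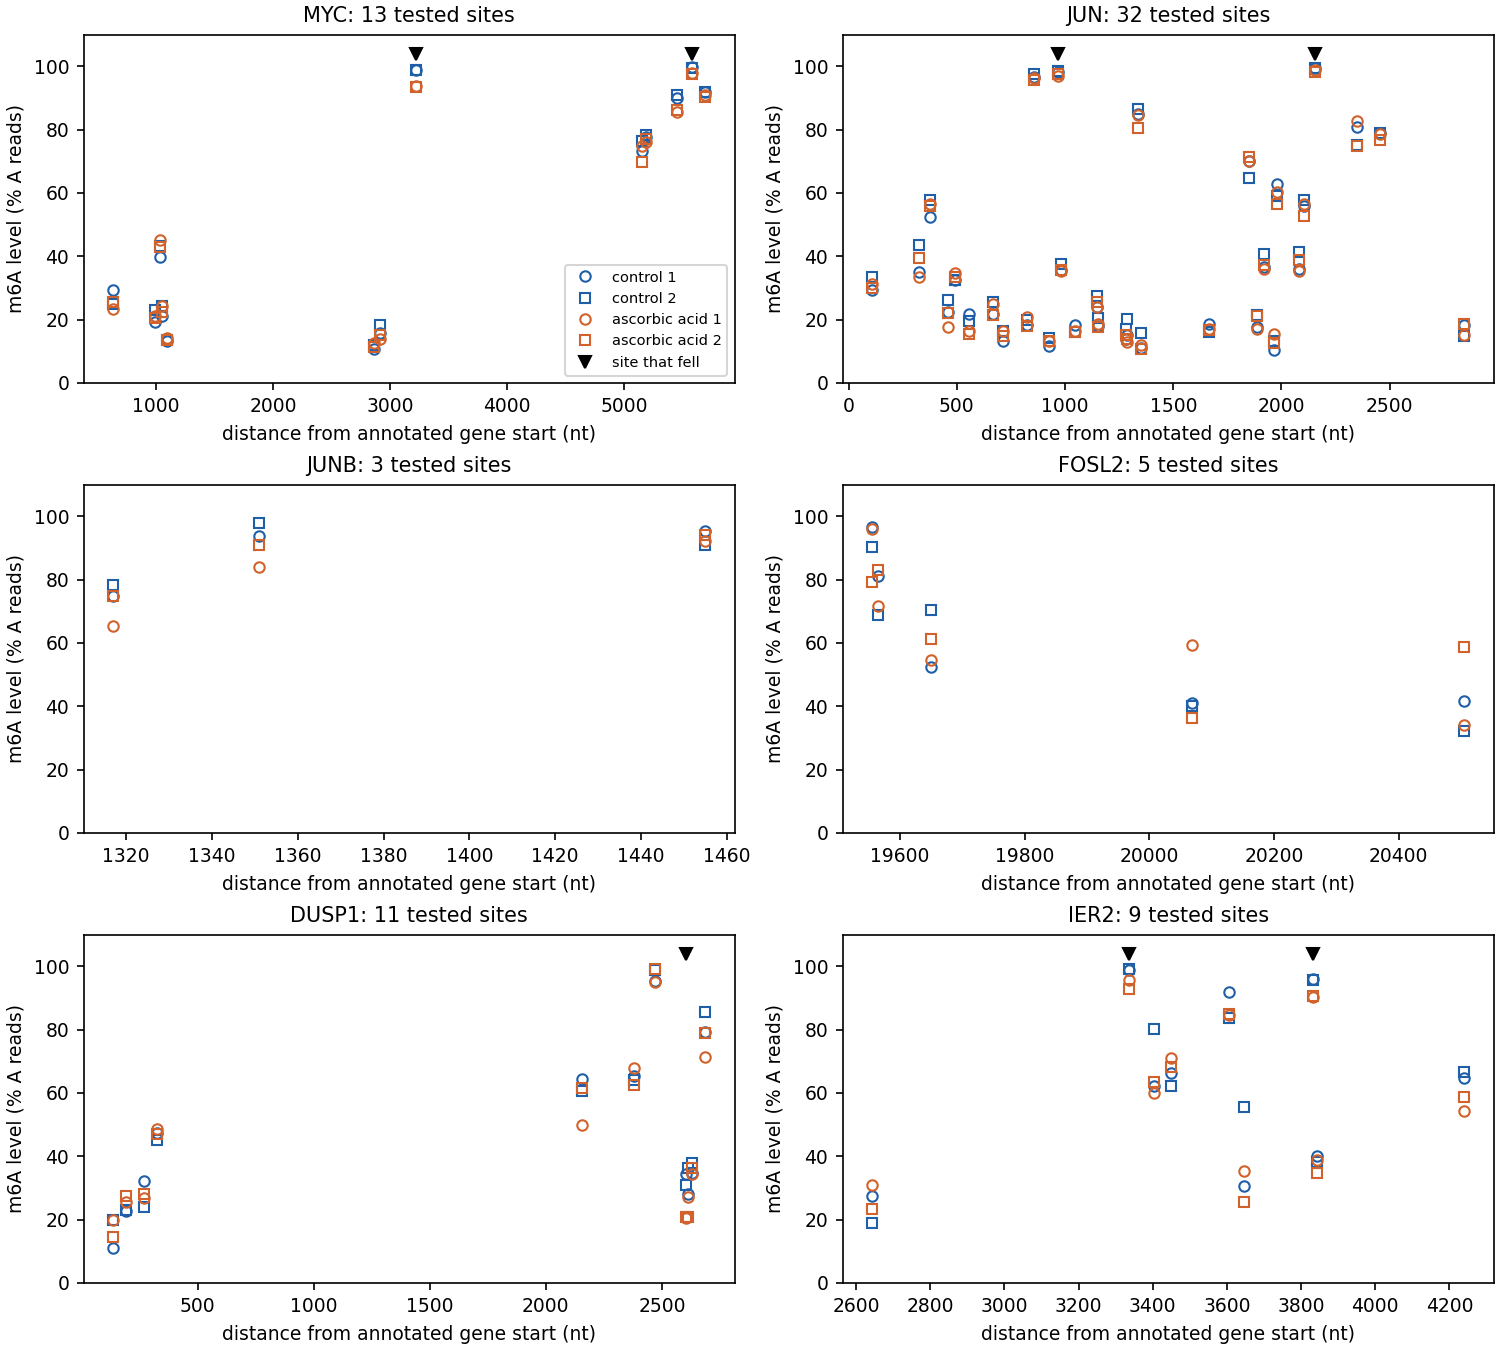
m6A level (%) of every tested site in each library against its distance from the annotated gene start (nt, introns included) in the 6 tested members, with triangles over the 7 sites that fell. In JUN, DUSP1 and IER2 the control (blue) and ascorbic acid (orange) points of most sites overlap. In MYC both ascorbic acid values lie below both control values at 6 of 13 sites and above them at 1. The triangles stand mostly over points near 100%.

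**Figure D4:**
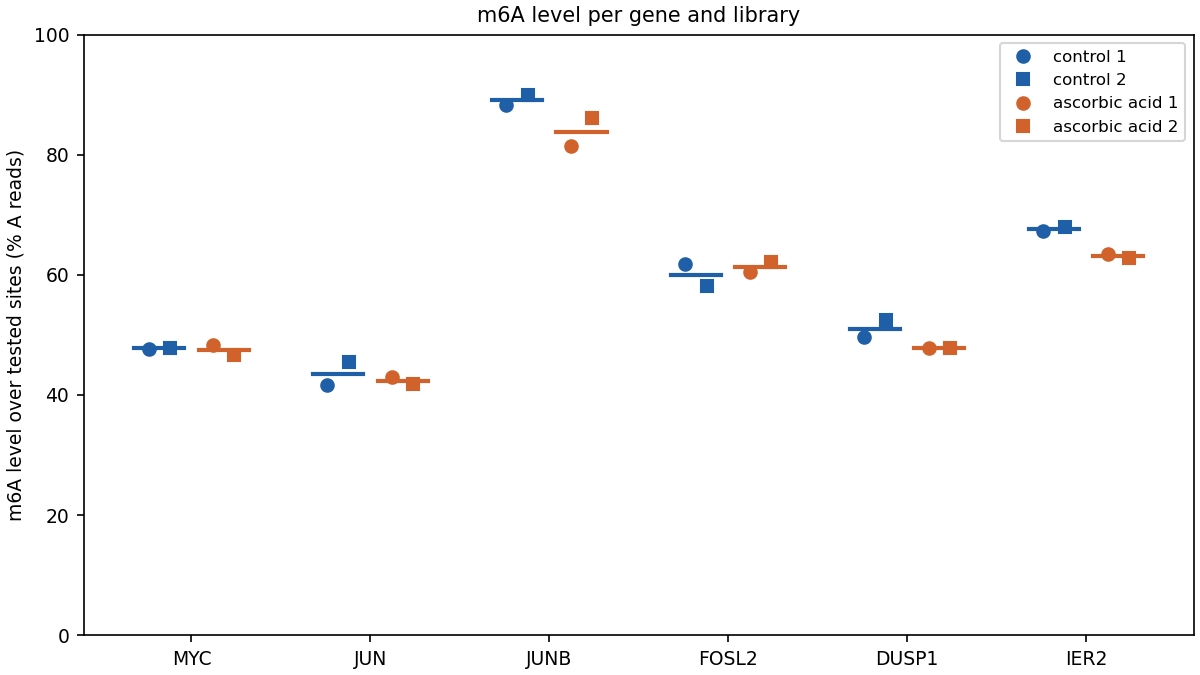
m6A level over the tested sites of each member (%) in the 4 libraries, with a bar at each group mean of 2 libraries. The IER2 points separate between 67.3% and 67.9% in control and 62.9% and 63.6% in treated cells, while those of MYC and FOSL2 overlap between groups.

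By position, the 18 tested member sites within 1000 nt of the annotated 3′ end had medians of 71.2% and 67.7% in control and treated cells. Of these sites 2 fell, 11.1% against 29.9% of such sites in all protein-coding genes. The 50 sites from 1000 to 5000 nt had medians of 37.8% and 36.5%, and 5 fell, 10% against 22.7%. The 5 sites farther away, all in MYC, had medians of 22.6% and 23.3%, and none fell against 31.5%. Such sites in all protein-coding genes had a control median of 42.3%. Distances count introns, and the classes were not matched for control level. In all protein-coding genes the medians of the nearest class were 37.7% and 30.9%. In MYC and DUSP1 the highest tested levels lie toward the 3′ end. The highest JUN site lies 2153 nt from the annotated start, and its other sites above 95% lie in the first 1000 nt. The tested JUN site nearest the annotated 3′ end, 412 nt from it, had a control mean of 16.6%.
Of 131 member sites 4 (3.05%) had another listed site of the same gene exactly 6 nt away, where 8.09% of all listed sites did. One within 10 nt was listed for 17 member sites (13.0%) and for 21.5% of all. Sites that close share reads and are not independent measurements.
Of the 58 member sites that were not tested, 1 was listed in all libraries below 20 reads, 10 in 3 libraries, 24 in 2 and 23 in 1. Both control libraries alone listed 4 sites and both ascorbic acid libraries alone listed 3. The number of member sites listed was 100 and 95 in control and 97 and 105 in treated cells.

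Coverage of DUSP1 rose with ascorbic acid, and that of no other member passed the test. Coverage is the authors' value per gene, scaled here between libraries, with a unit no source defines, so it is compared within a gene and not between genes. In a bulk culture more RNA per cell and more cells with the RNA cannot be told apart. DUSP1 read 139 and 134 in control and 187 and 191 in treated cells. The ascorbic acid libraries were both higher, by 1.39 times (95% interval 1.26 to 1.53, adjusted p = 0.0405, limma). Of 11848 genes tested 0.253% rose and 0.0422% fell. The call did not hold when coverage was scaled by total reads (log2 change 0.53 in place of 0.47, adjusted p = 0.427), without control library 2 (adjusted p = 0.0508) or without either ascorbic acid library (0.178 and 0.187).
MYC read 621 and 533 in control and 636 and 662 in treated cells, 1.13 times as high (95% interval 0.980 to 1.30, adjusted p = 0.411). The MYC groups do not overlap, which held in this direction for 23.2% of all genes. JUN read 547 and 483 and then 543 and 611, 1.12 times as high (0.969 to 1.30, adjusted p = 0.445), with overlapping groups.
IER2 read 152 and 176 in control and 136 and 139 in treated cells, 0.840 times the control (0.734 to 0.960, adjusted p = 0.248), and passed only without control library 1 (adjusted p = 0.0385). JUNB read 29.4 and 28.1 and then 25.7 and 25.1, 0.883 times (0.788 to 0.989, adjusted p = 0.308). Both lay below control in both libraries, which 23.6% of all genes did. FOSL2 read 29.2 and 29.2 and then 29.6 and 25.5 (0.941 times, adjusted p = 0.696). EGR1 had deposited, unscaled values of 20.1 and 20.4 in control and 19.4 in ascorbic acid library 2, and ZFP36 16.5 in that library alone.

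**Figure D5:**
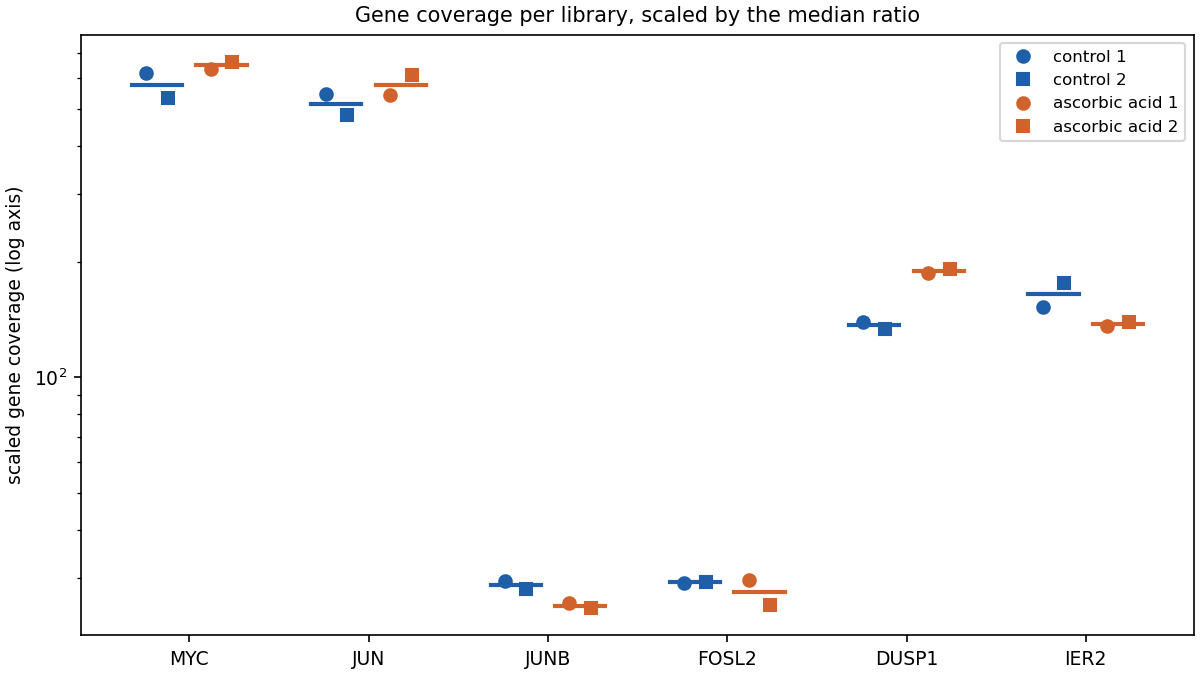
Scaled gene coverage (log axis, authors' unit) in the 4 libraries for the 6 members measured in all of them, with a bar at each group mean of 2 libraries. The DUSP1 points lie at 134 and 139 in control and 187 and 191 in treated cells, and the groups of MYC, JUNB and IER2 also separate without passing the test.

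A wider list of 97 names of signal-responsive and MYC-related genes places the members among their relatives. Of its 68 genes with a tested site, 23 fell and none rose, 33.8% against 56.8% of all genes, and the median change in log2 odds was -0.20 against -0.39. The median over the 6 members was -0.13.
In the AP-1 group 1 of 5 measured genes fell, BATF3, a basic leucine zipper factor, from 39.4% and 37.8% to 35.9% and 31.0% (adjusted p = 0.0273). JUND, the third JUN protein, read 46.6% and 53.7% and then 50.4% and 46.3% (adjusted p = 0.438). Control library 2 was the highest for JUND, as it was for JUN. The changes of the stress-induced factor ATF3 and of the small MAF protein MAFK were -0.12 and -0.18 in log2 odds and did not pass. FOS, FOSB and FOSL1 had no listed site.
Among EGR, NR4A, KLF and other factors 3 of 17 fell. They were ELK4, a partner of serum response factor, from 54.0% and 54.5% to 40.1% and 38.2% (adjusted p = 5.5e-07), CSRNP2 (log2 odds -0.45) and KLF10 (-0.31). KLF6 did not pass (-0.23, adjusted p = 0.0552).
Among feedback and decay genes 1 of 13 fell, TOB2, which recruits deadenylase, from 61.5% and 63.1% to 58.8% and 58.1% (adjusted p = 0.0141). BTG1, BTG2 and the ZFP36 relative ZFP36L2 had changes of -0.46, -0.21 and -0.15 and did not pass.
Among other immediate early genes 8 of 19 fell. VEGFA, a growth factor for blood vessels, had the smallest p of these and went from 65.2% and 68.1% to 56.3% and 55.0% (adjusted p = 2.13e-06), followed by the kinase PIM3, TIPARP and the survival factor MCL1 with changes of -0.29, -0.34 and -0.22.
In the MYC-MAX network 10 of 14 fell, with a median of -0.39. MXD3, which pairs with MAX and competes with MYC, went from 55.7% and 63.0% to 36.4% and 39.5% (log2 odds -1.27, adjusted p = 8.18e-07). MLXIP, MLX and MGA changed by -0.48, -0.49 and -0.49, and all passed. These 4 were picked for the smallest p in the group. The 4 that did not pass, MYCL, MXI1, MXD1 and FBXW7, changed by 0.04, -0.16, -0.20 and -0.26. MYC's own 95% interval, -0.16 to 0.12, lies above the values of the 4 picked genes and includes that of MYCL. Differences between genes were not tested. All are sums over sites, which also depend on how the reads are spread over them.
In coverage none of the 74 genes of the wider list that were measured passed the limma test in either direction. The genes with the smallest p in their groups were JUND and ATF3 (1.13 and 1.15 times control), KLF2 and ID1 (1.21 and 1.29), DUSP2 and TOB2 (1.31 and 0.917), CCN1 and RHOB (1.27 and 1.42), and MAX and MXD3 (0.903 and 1.17). RHOB was the nearest to the threshold (adjusted p = 0.0507).

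The gene whose 4 library levels lay nearest to those of a member was found among 5182 genes with at least 5 tested sites, as the Euclidean distance in percentage points. For MYC it was LOC101928120 (distance 1.21), for JUN ARHGEF3 (1.50), for DUSP1 CHURC1-FNTB (1.06), for FOSL2 POC1B-GALNT4 (2.90) and for IER2 FAM89A (0.902). FAM89A read 67.7% and 67.8% in control and 64.1% and 63.4% in treated cells, beside 67.3%, 67.9%, 63.6% and 62.9% for IER2.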

How the data were processed

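The authors deposited 1 table of called sites per library, 2 control and 2 ascorbic acid. The submitters' processing notes name STAR, Trimmomatic 0.39 and, as builds, GRCh38 and hg38; no source used here names the site caller. Whole read counts of A, and of A with G, were deposited unscaled by the authors for each site. The level is the authors' fraction A over A plus G, recomputed within 5e-06, and the conversion rate is a second fraction by the authors. Gene coverage is a signal deposited by the authors, with no unit stated. The p-value and adjusted p-value per site are the authors' test against background, per the file headers, and were not used for comparisons.

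Sites listed in every library with 20 or more A plus G reads were tested by edgeR 4.0.16 (quasi-likelihood, a term per library, treatment effect on the odds of A), per site and on reads summed per gene. Coverage, scaled by the median ratio over genes, was tested with limma 3.58.1 on log2 values. P-values are two-sided and Benjamini-Hochberg adjusted over all sites or genes, threshold 0.05. The tests were checked on simulated data. DESeq2 1.42.0, R 4.3.3, Python 3.11.15, pandas 2.3.3 and matplotlib 3.10.9 were also used. Gene spans and the sequences around gene starts, used for the printed sequences, the motif search and the check of bases, come from RefSeq, GRCh38.p14. Sequence beyond those windows, exons, UTRs and proteins were not analysed here. 0 per-sample columns were left unmapped.

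The members and lists were chosen with earlier results of these data known. Sites named in each member are those with the most reads, the highest control mean, the largest fall and the largest rise, and all past the threshold; other member sites were added after their values were seen. In the wider list up to 4 genes per group with the smallest p per gene and 2 with the smallest coverage p are named. Depths are read counts. No source used here says whether the 6 random adapter bases served to remove duplicates, so reads may not be independent molecules.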

Additional observations from a re-analysis of the deposited data

How the results depend on the processing

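Over 15 alternative settings, the MYC site at chr8:127738657 and the IER2 site at chr19:13154243 passed in every fit run on them. Member sites that fell (7) became 4 with DESeq2 and 4 with limma, all among the 7. With 1 library left out they numbered 4 to 7: without control library 1, 3 of the 7 with 4 others (JUN 58782761, JUN 58783190, IER2 13153815 and IER2 13154057), and without ascorbic acid library 2, 3 of the 7 with DUSP1 172769040. Members whose level fell (1) became 0 with DESeq2, 0 with limma and 0 to 3 with 1 library left out. Members whose coverage rose (1) became 0 when scaled by total reads and 0 to 1 with 1 library left out, and those whose coverage fell (0) ranged from 0 to 1. No member site rose under any setting. Precision is limited by the 2 libraries per group, and JUNB and FOSL2 rest on 21 to 48 reads per site. The causes of these shifts were not tested.

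Some values that did not pass with all libraries changed sign, none of them past the threshold at the turned sign. They include FOSL2 28412414, at -1.16 with all libraries. With 1 library left out, log2 odds per gene ranged from -0.0679 to 0.0272 for MYC, from -0.1841 to 0.0480 for JUN and from -0.0307 to 0.1907 for FOSL2, and the log2 coverage change of FOSL2 from -0.1980 to 0.0217. Per site they ranged from -0.13 to 0.20 at DUSP1 172768814, -1.32 to 1.63 at DUSP1 172768723, -1.95 to 0.56 at FOSL2 28412414, -0.27 to 1.09 at FOSL2 28412926, -0.20 to 1.24 at FOSL2 28413363, -0.1911 to 0.0846 at JUN 58783937 and -0.57 to 0.40 at JUNB 12792941. The last was also 0.0004 with DESeq2 and 0.0131 with A reads reduced by the unconverted share, and DUSP1 172768723 was 0.20 with limma.

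Over the whole series, sites that fell numbered 20188 and sites that rose 173, against 9991 and 16 with DESeq2, 10476 and 25 with limma, and 12422 sites that fell without ascorbic acid library 2. Sites that rose numbered 261 with A reads reduced by the unconverted share, 58 without sites that have another site 6 nt away, 36 without control library 1 and 29 without ascorbic acid library 1. Genes that rose numbered 32, and 11 to 98 over the settings. With 1 library left out, coverage rose in 3 to 236 genes and fell in 2 to 122, against 30 and 5.

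The replicate numbers come from library names alone and pair nothing in the labels. Deviations of same-numbered libraries correlated at -0.01 per site and -0.16 for coverage. With the number as a replicate block, 8 member sites fell, the added one being IER2 13154057 (adjusted p = 0.0334), and the DUSP1 coverage rise kept its call. Coverage then rose in 70 and fell in 22 genes. With crossed numbers, a fit chosen after seeing the data, it rose in 85 and fell in 22.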

Other observations

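At 2 MYC positions a high level stood in 1 library alone, both named after their values were seen. The site at chr8:127741111 was listed in ascorbic acid library 2 at 95.4% of 1097 reads, and in no other library. It lies 17 nt from chr8:127741128, which was listed in all 4 libraries with 899 to 1309 reads. The site at chr8:127740945 was listed in control library 1 alone, at 88.2% of 153 reads. Across the series 8533 sites reached 80% with at least 100 reads in some library, and 85 of these (0.996%) were listed in 1 library only.

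Between the control libraries the mean chi-square per member site, which is near 1 under counting error alone, was 1.52 over the 73 tested sites, against 1.16 over all tested sites. Between the ascorbic acid libraries it was 1.12 against 1.03. The member sites and all tested sites were not matched for read depth. The parts of depth and of the lower conversion in control library 2 were not tested.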
